A study of Mus musculus with 8 samples.

Results

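The VEGF ligands Vegfa, Vegfb, Vegfc and Pgf, the receptors Kdr, Flt1 and Flt4 and the neuropilins Nrp1 and Nrp2 were followed in the ventricles of mouse hearts at embryonic day 10.5. These 9 genes were taken by symbol from the 55291 genes of the count table, and all 9 were among the 26820 genes that passed the filter on low counts. There were 4 libraries of Pkn2 cKO tissue (Pkn2 fl/fl with XMLC2-Cre) and 4 of control littermates (Pkn2 fl/fl without Cre), so that both groups carried the floxed allele and only the Cre differed. XMLC2-Cre is active in cardiomyocytes, and the deletion was therefore aimed at the muscle cells, while the VEGF receptors are known from endothelial and endocardial cells. The mice were on a C57BL/6N background, no treatment was given, and the RNA was poly(A)-selected from tissue that holds all cell types of the ventricle. The labels do not say whether a library is 1 embryo or a pool, so the tests measure the spread between these samples.

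VEGF ligands are secreted dimers that bind receptor tyrosine kinases on endothelial cells. Vegfa binds Kdr (VEGFR2), which carries most of the signal for endothelial growth, and Flt1 (VEGFR1), which binds more tightly but signals weakly and can act as a trap for the ligand, also as a soluble form. Vegfb and Pgf (placental growth factor) bind Flt1, Vegfc binds Flt4 (VEGFR3), and the neuropilins are co-receptors shared with the semaphorins. In the embryonic heart Vegfa is made largely by the myocardium, and endocardium and vessels carry the receptors. The deposited values are per gene, so the Vegfa isoforms, and the membrane and soluble forms of Flt1, were not told apart.

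Promoter sequences are shown for 4 genes because the results turn on them: Flt1, the member that passed the test, Kdr and Vegfa, whose groups did not overlap, and Nrp1, which differed little. Each is the 250 bases upstream of a transcription start in RefSeq (build GRCm38.p6), on the minus strand for Flt1, Kdr and Vegfa and the plus strand for Nrp1. They are written 5′ to 3′ along the gene. Capitals mark GGAA, the core of the sites that ETS factors of endothelial cells bind, or its complement TTCC.
Flt1, chr5:147726012-147726261: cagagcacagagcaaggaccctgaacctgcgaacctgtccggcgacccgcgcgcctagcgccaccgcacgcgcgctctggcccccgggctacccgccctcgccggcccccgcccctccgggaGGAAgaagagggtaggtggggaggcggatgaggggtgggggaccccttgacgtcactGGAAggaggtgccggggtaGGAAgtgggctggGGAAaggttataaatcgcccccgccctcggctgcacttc
Kdr, chr5:75978456-75978705: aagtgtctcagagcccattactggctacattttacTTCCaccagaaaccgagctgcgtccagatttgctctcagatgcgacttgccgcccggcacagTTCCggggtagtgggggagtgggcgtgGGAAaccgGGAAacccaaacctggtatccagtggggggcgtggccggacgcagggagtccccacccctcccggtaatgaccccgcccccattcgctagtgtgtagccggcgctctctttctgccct
Vegfa, chr17:46032378-46032627: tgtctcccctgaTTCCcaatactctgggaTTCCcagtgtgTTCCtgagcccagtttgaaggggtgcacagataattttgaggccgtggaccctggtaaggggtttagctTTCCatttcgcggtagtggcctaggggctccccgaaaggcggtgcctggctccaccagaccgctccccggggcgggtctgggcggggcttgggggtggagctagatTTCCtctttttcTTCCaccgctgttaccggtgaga
Nrp1, chr8:128358823-128359072: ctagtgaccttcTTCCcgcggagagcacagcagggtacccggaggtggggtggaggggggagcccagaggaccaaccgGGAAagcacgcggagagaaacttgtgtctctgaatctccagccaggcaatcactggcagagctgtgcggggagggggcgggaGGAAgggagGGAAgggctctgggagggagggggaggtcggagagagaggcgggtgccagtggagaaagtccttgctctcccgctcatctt

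Flt1, Kdr and Nrp1 each held 4 GGAA matches on either strand, and Vegfa held 6. The 4 matches of Flt1 began 128, 71, 52 and 39 bases upstream of the start. A match of this kind is common: 93.4% of the 32851 upstream windows in the RefSeq table held at least 1, and 18.0% held 5 or more. Of the members, 8 of 9 held it, and Pgf did not. The GC box GGGCGG stood in all 9 windows, against 32.7% of all windows. Of the cores of the hypoxia response element, GCGTG stood in 6 members (28.2% of all windows) and ACGTG in 0 (16.6%), each read on both strands. Flt1 was the member with the TATA box letters TATAAA, 31 bases upstream (12.4% of all windows). The median over all windows was 3 GGAA matches, and 54.7% of windows held 3 or more. Whether any of these matches bears on the fold changes given below was not tested. For Pgf, Flt4, Nrp1 and Vegfc the RefSeq start lay 477, 416, 211 and 74 bases from the start of the gene in the deposited table, and at most 32 bases for the other 5.

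Libraries held 47559845 to 56660938 counts. Levels of one gene across libraries are given as CPM, counts scaled to library size after TMM normalization. Pkn2 was at 56.3% of the control level (81.2 ± 3.07 against 144 ± 9.85 CPM, mean ± SD, n = 4 each), with the floxed part not told apart from the rest of the gene. On the first principal component of log2 CPM, the controls lay between −10.2 and −5.12. cKO replicates 4 and 1 lay farthest from them at 18.3 and 13.8, with replicates 2 and 3 at 2.36 and −1.94, so the cKO libraries were unequal in their distance from the controls. Genes were tested with edgeR's quasi-likelihood test over all 26820 genes, and a gene was called at a Benjamini-Hochberg adjusted p of at most 0.05.

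Of the 9 members, 1 was called, Flt1, which was higher in cKO, and 0 were called lower. Of all genes tested, 0.858% were called, 0.515% higher and 0.343% lower. The members' median log2 fold change was 0.23, against −0.00085 over all genes tested. Of the 9 members 7 were above 0, against 49.8% of all genes tested. At an unadjusted p under 0.05, 5 of 9 members were higher (Flt1, Vegfa, Kdr, Nrp2 and Flt4) and 0 lower, where 6.61% of all genes were higher and 6.20% lower. With a fold change of at least 1.5 required in addition, 0 members were called (98 of all genes, 0.365%). Fewer cells of a type and less RNA per cell cannot be told apart in such bulk tissue.

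**Figure D1:**
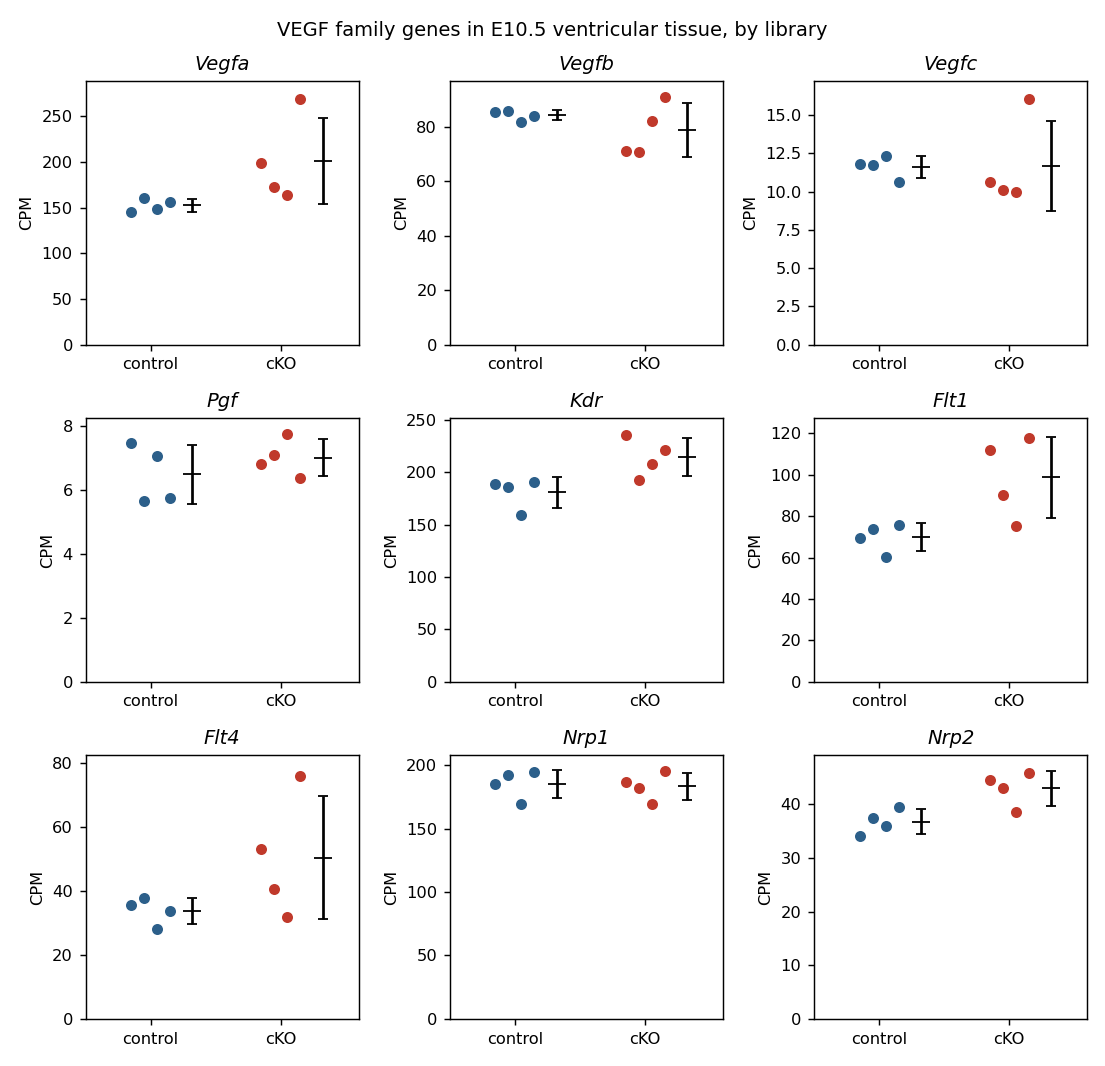
Each panel plots one gene, with CPM on a linear axis from 0 for the 4 control libraries (blue, replicates 1 to 4 from left to right) and the 4 cKO libraries (red), and black bars for mean ± SD. Kdr and Vegfa show no overlap between the groups, Flt1, Flt4 and Nrp2 have 3 of 4 cKO libraries above every control, and Nrp1 lies at one level in both.

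Flt1, the high-affinity receptor (ENSMUSG00000029648, GRCm38 chromosome 5, 147561604 to 147726011, minus strand), was at 112, 90.2, 75.4 and 118 CPM in cKO replicates 1 to 4 and at 69.5, 73.9, 60.4 and 75.9 CPM in control replicates 1 to 4. Replicate 3 was the lowest of each group, and it was the cKO library that fell inside the control range. The group means were 98.8 ± 19.6 and 69.9 ± 6.89 CPM (SD, n = 4 each). The log2 fold change was 0.50 (standard error 0.11, 95% interval 0.26 to 0.74), a 1.41-fold higher level, with an adjusted p of 0.0484 from edgeR. The exact permutation test on log2 CPM gave p = 0.0571 (two-sided, 70 groupings, smallest possible 0.0286). The call stood close to the threshold: it was lost in 6 of the 8 fits that left out a library, where the log2 fold change ran from 0.41 (without cKO replicate 4, adjusted p = 0.0859) to 0.61 (without cKO replicate 3, adjusted p = 0.00307).

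Kdr, the main signalling receptor (ENSMUSG00000062960, chromosome 5, 75932827 to 75978458, minus strand), was at 236, 192, 208 and 221 CPM in cKO and at 189, 186, 159 and 190.3 CPM in controls. The groups did not overlap, although the gap between cKO replicate 2 and control replicate 4 was small. The log2 fold change was 0.25 (standard error 0.07, 95% interval 0.09 to 0.40), with means of 214 ± 18.5 and 181 ± 14.9 CPM. It did not pass after adjustment (adjusted p = 0.128 by edgeR, exact permutation p = 0.0286). Groups without overlap were found for 2 of the 9 members, Kdr and Vegfa, both higher, where 3.14% of all genes had such groups in that direction and 6.91% in either.

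Flt4, the receptor for Vegfc (ENSMUSG00000020357, chromosome 11, 49609263 to 49652739, plus strand), was at 53.1, 40.7, 31.8 and 76.2 CPM in cKO and at 35.5, 37.8, 28.1 and 33.9 CPM in controls. The cKO values spread widely, with replicate 4 highest and replicate 3 inside the control range. Its log2 fold change of 0.58 was the largest of the 9 members and also had the largest standard error, 0.19 (95% interval 0.19 to 0.97, adjusted p = 0.165 by edgeR). The coefficient of variation was 38.1% among cKO and 12.2% among control libraries. Without cKO replicate 4 the log2 fold change was 0.32 (adjusted p = 0.350). At later stages Flt4 marks lymphatic endothelium. Whether the lymphatic markers below come from such cells in this bulk tissue was not tested. Of the 4 lymphatic markers, Ccl21a was at 0 counts in every library, and the other 3 had log2 fold changes below 0 with 0 called by edgeR: Prox1 −0.14 (adjusted p = 0.278), Pdpn −0.37 (adjusted p = 0.302) and Lyve1 −0.34 (adjusted p = 0.456).

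**Figure D2:**
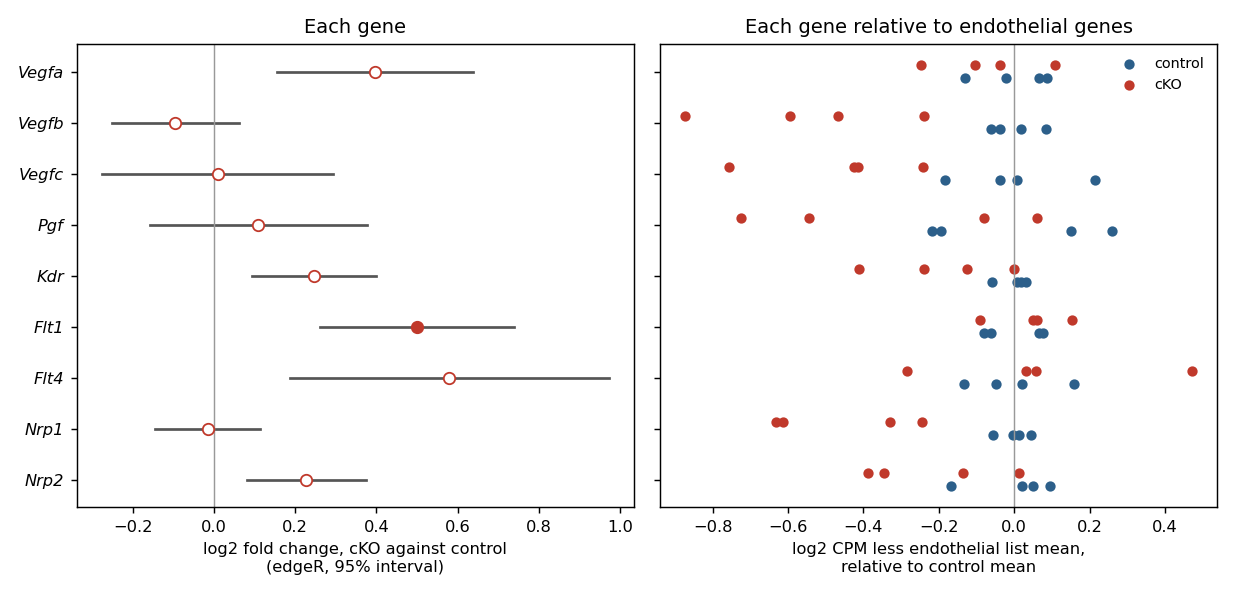
Left, log2 fold change of each gene with its 95% interval from edgeR, filled where the adjusted p was at most 0.05 (Flt1). Right, log2 CPM of each gene less the mean of 20 endothelial genes in every library, set to 0 at the control mean. The mean of the 20 genes was itself higher in cKO. Vegfb, Vegfc and Nrp1 lie lower in all 4 cKO libraries than in any control, and Flt1 overlaps.

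Among the ligands, Vegfa (ENSMUSG00000023951, chromosome 17, 46016993 to 46032369, minus strand) had the largest difference. It was at 198, 173, 164 and 269 CPM in cKO and at 145, 161, 148 and 156 CPM in controls. The groups did not overlap, and cKO replicate 4 stood above the other 3 cKO libraries. The means were 201 ± 47.4 and 153 ± 7.17 CPM, and the log2 fold change was 0.40 (standard error 0.11, 95% interval 0.15 to 0.64, adjusted p = 0.119 by edgeR, exact permutation p = 0.0286). Without cKO replicate 4 it was 0.23 (adjusted p = 0.137), and without cKO replicate 3 it was 0.48 and passed (adjusted p = 0.0278).

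Vegfb, a Flt1 ligand that is abundant in heart muscle (ENSMUSG00000024962, chromosome 19, 6982473 to 6987651, minus strand), was at 70.9, 70.9, 82.2 and 91.0 CPM in cKO and at 85.3, 85.7, 81.7 and 83.9 CPM in controls. cKO replicates 1 and 2 lay below the controls and replicate 4 above them. The log2 fold change was −0.10 (95% interval −0.25 to 0.06, adjusted p = 0.676 by edgeR). The controls were tight, with a coefficient of variation of 2.13% against 12.4% in cKO.

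Vegfc (ENSMUSG00000031520, chromosome 8, 54077606 to 54187096, plus strand) was at 10.6, 10.1, 9.95 and 16.0 CPM in cKO and at 11.8, 11.7, 12.3 and 10.6 CPM in controls. 3 cKO libraries lay below every control and replicate 4 above every control, so that the log2 fold change of 0.01 (95% interval −0.28 to 0.29, adjusted p = 0.994 by edgeR) averaged libraries on opposite sides. Without replicate 4 it was −0.18 (adjusted p = 0.517). Pgf, the least abundant member (ENSMUSG00000004791, chromosome 12, 85166635 to 85177790, minus strand), was at 6.83, 7.11, 7.75 and 6.37 CPM in cKO and at 7.47, 5.66, 7.08 and 5.77 CPM in controls. The ranges overlapped, and the log2 fold change was 0.11 (95% interval −0.16 to 0.38, adjusted p = 0.803 by edgeR). Pgf rested on 273 to 404 reads per library, against 7748 to 15045 for Vegfa. The remaining VEGF ligand of the mouse, Vegfd, which was not a member and was looked up after its values were seen, was low, with a mean of 0.790 ± 0.284 CPM for cKO against 1.13 ± 0.452 CPM for control libraries (adjusted p = 0.548 by edgeR, n = 4 each).

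The co-receptors differed from each other. Nrp1 (ENSMUSG00000025810, chromosome 8, 128359284 to 128503363, plus strand) was at 186, 182, 169.6 and 195 CPM in cKO and at 185, 192, 169 and 194 CPM in controls. The groups covered the same range, and the 95% interval of its log2 fold change of −0.02 ran from −0.15 to 0.11 (adjusted p = 0.957 by edgeR). Nrp2 (ENSMUSG00000025969, chromosome 1, 62703285 to 62818695, plus strand) was at 44.6, 43.0, 38.5 and 45.8 CPM in cKO and at 34.0, 37.4, 35.9 and 39.6 CPM in controls. Only cKO replicate 3 fell within the control range, by a small margin below control replicate 4. The log2 fold change was 0.23 (standard error 0.07, 95% interval 0.08 to 0.37, adjusted p = 0.142 by edgeR, exact permutation p = 0.0571). Genes that overlap a neuropilin (Mir1903 in Nrp1, Gm29083 and Gm37121 in Nrp2) had 346, 2 and 115 counts over the 8 libraries.

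Levels of different genes were set side by side as TPM, the authors' values scaled per transcript length. Over the 8 libraries the order was Vegfb (115 ± 10.3 TPM, SD, n = 8), Vegfa (100.0 ± 24.4), Nrp1 (93.1 ± 6.00), Kdr (59.5 ± 7.82), Flt1 (22.4 ± 5.86), Flt4 (11.96 ± 4.59), Nrp2 (11.0 ± 1.31), Vegfc (8.25 ± 1.45) and Pgf (6.85 ± 0.912). The ranges of Vegfb, Vegfa and Nrp1 overlapped in turn, and those of Flt4, Nrp2, Vegfc and Pgf did too. Over all 8 libraries, neighbours within each of these sets were therefore not separated by their ranges. Nrp2 was nevertheless above Vegfc in each of the 8, and in the controls without overlap (9.13 to 10.6 against 7.32 to 8.65 TPM). Nrp2 and Pgf, which are not neighbours, did not overlap (9.13 to 12.8 against 5.35 to 7.95 TPM). Kdr lay below Nrp1 and above Flt1 without overlap. Flt1 lay above Flt4 in each of the 8 libraries. Their ranges overlapped over the 8 and within cKO, but not in the controls (15.7 to 20.2 against 7.78 to 11.0 TPM). In the controls Vegfb was above Vegfa without overlap (118 ± 5.30 against 85.4 ± 6.71 TPM), whereas in cKO their ranges overlapped (111 ± 13.8 against 115 ± 27.9 TPM). Kdr was thus the leading receptor by level in both groups, at 65.2 ± 5.83 TPM in cKO and 53.8 ± 4.80 TPM in controls.

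Ratios between members within a library do not depend on how libraries are scaled, and 10 pairs were compared as ratios of CPM. None passed after adjustment over the 10 pairs (exact permutation tests, two-sided). The smallest unadjusted p this test can give is 0.0286, so a pair can pass only where most of the 10 reach it together. Not passing therefore does not show that a ratio was unchanged. In 4 pairs the groups did not overlap, at that unadjusted p and an adjusted p of 0.0714 each. The tightest was Nrp2 to Nrp1. It was 0.239, 0.237, 0.227 and 0.235 in cKO replicates 1 to 4 and 0.184, 0.195, 0.213 and 0.204 in controls, a log2 difference of 0.24 (SD 0.033 among cKO, 0.0895 among control libraries). Vegfa to Nrp1 was 1.06, 0.952, 0.966 and 1.38 in cKO and 0.783 to 0.877 in controls (log2 difference 0.38). Vegfb to Flt1 was 0.633, 0.786, 1.09 and 0.774 in cKO and 1.11 to 1.35 in controls (log2 difference −0.59), and Nrp1 to Kdr was 0.791 to 0.944 in cKO and 0.982 to 1.07 in controls (log2 difference −0.26).

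The ratios of the ligand Vegfa to its receptors Kdr and Flt1 overlapped between the groups. Vegfa to Kdr was 0.842, 0.899, 0.788 and 1.21 in cKO and 0.769 to 0.936 in controls (exact permutation p = 0.571, adjusted 0.571), and its log2 difference of 0.12 was −0.0080 without cKO replicate 4. Vegfa to Flt1 was 1.77 to 2.28 in cKO and 2.06 to 2.46 in controls (exact permutation p = 0.314, adjusted 0.393). Flt1 to Kdr, the high-affinity receptor against the signalling receptor, was 0.475, 0.469, 0.363 and 0.532 in cKO and 0.369 to 0.399 in controls. In that ratio 3 cKO libraries lay above and replicate 3 below every control (log2 difference 0.24, exact permutation p = 0.143, adjusted 0.238). Without cKO replicate 3, 7 of the 10 pairs passed after adjustment, Flt1 to Kdr among them. Each of these 7 stood at the smallest p the exact test can give, 0.0286. The library left out there was the cKO library nearest the controls on the first principal component (−1.94). In the other 7 runs with a library left out, 0 pairs passed, under the same limit of the exact test.

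**Figure D3:**
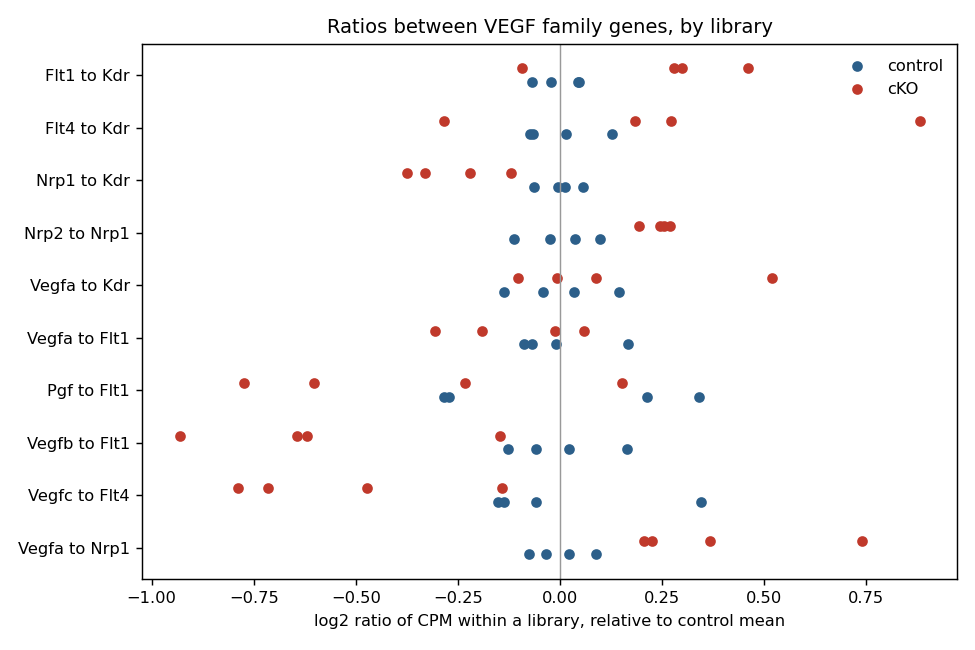
Each row is a pair of genes and each point a library, with the log2 ratio of CPM on the x axis, set to 0 at the control mean (blue control, red cKO). Nrp2 to Nrp1 and Vegfa to Nrp1 lie to the right in all 4 cKO libraries, Nrp1 to Kdr and Vegfb to Flt1 to the left, and Vegfa to Kdr and Vegfa to Flt1 overlap.

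Endothelial genes moved with the receptors. Of 20 endothelial markers that hold no member, such as Pecam1, Cdh5 and Tie1, 7 were called higher and 0 lower (median log2 fold change 0.39), and 0 lacked counts. Their summed level ran from 1863 to 2433 CPM in the cKO libraries against 1487 to 1746 CPM in controls. Their mean log2 CPM, relative to the control mean, was 0.63, 0.22, 0.21 and 0.71 in cKO replicates 1 to 4 and −0.13 to 0.06 in controls, so replicates 1 and 4 were the highest here as for Flt1. Relative to this mean in the same library, Flt1 differed by 0.04 on the log2 scale (SD 0.10 among cKO, 0.082 among control libraries, exact permutation p = 0.657) and Flt4 by 0.07 (exact permutation p = 0.714). Vegfa differed by −0.07 (exact permutation p = 0.543). Kdr was lower relative to the list by −0.19, with values of −0.24, −0.13, 0.000609 and −0.41 in cKO (exact permutation p = 0.0571, adjusted over the 9 members 0.129). These differences depended on how the endothelial genes were averaged. With their median in place of the mean, Flt1 was at 0.17, Flt4 at 0.19, Kdr at −0.07 and Vegfa at 0.05 (exact permutation p from 0.171 to 0.743).

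The endothelial mean was itself higher in cKO by 0.44 (log2), without overlap, so a gene at an unchanged level falls below it. The log2 fold changes of Vegfb, Vegfc and Nrp1 themselves were −0.10, 0.01 and −0.02. Relative to the endothelial mean, Vegfb, Vegfc and Nrp1 differed by −0.54, −0.46 and −0.45 (log2). Each was without overlap (exact permutation p = 0.0286, adjusted 0.0857, 4 of 4 cKO libraries lower). With the median of the endothelial genes they were at −0.42, −0.34 and −0.33, and Vegfc was then no longer separate (exact permutation p = 0.114), while Vegfb and Nrp1 stayed at p = 0.0286. Nrp2 was at −0.21 (exact permutation p = 0.114, −0.09 with the median) and Pgf at −0.32 (exact permutation p = 0.229, −0.20 with the median). None of the 9 passed after adjustment, where a member can pass only if most of the 9 reach the smallest p of the exact test. The part of a changed share of endothelial cells in the receptor levels was not tested.

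Other cell types were read from marker lists. The 12 cardiomyocyte markers had 0 called genes in edgeR (4 at an unadjusted p under 0.05, 2 in each direction) and summed to 38140 to 41576 CPM in the cKO libraries against 38070 to 42308 CPM in controls, so the defining genes of heart muscle were abundant in all 8. The 6 endocardial markers had 1 called gene, Nfatc1, which was higher (log2 fold change 0.36, adjusted p = 0.0262), and summed to 794 to 867 against 709.99 to 736 CPM. At an unadjusted p under 0.05, 3 of them were higher and 2 lower, the latter being Foxc1 (log2 fold change −0.27, adjusted p = 0.135 by edgeR) and Cytl1 (−0.64, adjusted p = 0.355), named after their values were seen. The 10 macrophage markers had 2 called, both higher (median log2 fold change 1.78), and summed to 46.3 to 71.1 against 31.0 to 39.99 CPM. The lowest p among them was that of C1qc, with a log2 fold change of 2.54 (adjusted p = 0.0131). The 6 megakaryocyte and platelet markers, cells that store VEGF, had 0 called (5 at an unadjusted p under 0.05, all higher) and summed to 38.7 to 119 against 24.2 to 58.0 CPM. The lowest p in the endothelial list was that of Cd34 (log2 fold change 0.76, adjusted p = 0.0136 by edgeR). Epicardial, mesenchymal, lymphatic, erythroid, neural and hepatic lists had 0 called genes. Unadjusted p was under 0.05 for 2 epicardial genes (lower), 0 mesenchymal, 2 lymphatic (lower), 0 erythroid, 1 neural (higher) and 6 hepatic genes (lower). Beside Prox1, the genes with the lowest p in the uncalled lists were Nkx2-5 (cardiomyocyte, log2 fold change −0.32, adjusted p = 0.109 by edgeR), Aldh1a2 (epicardial, −0.59, 0.0666) and Pdgfra (mesenchymal, 0.16, 0.393). The others were Itga2b (platelet, 1.07, 0.0912), Gata1 (erythroid, 0.53, 0.579), Ttr (hepatic, −1.71, 0.0820) and Tubb3 (neural, 0.48, 0.128), in the same order of values. The hepatic genes summed to 0.914 to 2.43 CPM in the cKO libraries against 2.61 to 28.8 CPM in controls. Their part in the VEGF results was not tested.

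The genes that carry the signal inside the cell gave no call. Of 40 genes of VEGF receptor signalling, among them Plcg1, Src, Akt1 and Nos3, 0 were called by edgeR (3 higher and 5 lower at an unadjusted p under 0.05), with log2 fold changes from −0.29 to 0.25 and a median of 0.0031. The lowest p was that of Hspb1, a heat shock protein phosphorylated downstream of Kdr, which ran from 222 to 276 CPM in the cKO libraries against 293 to 346 CPM in controls (log2 fold change −0.29, adjusted p = 0.0736).

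Of 18 partners of the ligands and receptors, 2 were called, both higher. Ptprb (VE-PTP), a phosphatase of endothelial receptors and junctions, was at 91.1, 64.7, 50.3 and 71.3 CPM in cKO and at 37.4, 48.5, 46.6 and 45.6 CPM in controls (log2 fold change 0.64, standard error 0.13, adjusted p = 0.0292 by edgeR). Cdh5 (VE-cadherin), the endothelial junction protein that associates with Kdr, was at 339, 286, 247 and 353 CPM in cKO and at 239, 224, 171 and 218 CPM in controls (log2 fold change 0.53, standard error 0.11, adjusted p = 0.0303 by edgeR). For both genes the groups did not overlap. Cdh5 is also one of the endothelial markers, and the median over the 18 partners was 0.09.

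Among 16 genes known to respond to VEGF in endothelial cells, 1 was called, 15 had a log2 fold change above 0, and the median was 0.25. Of all genes tested, 49.8% were above 0. Of the 20 endothelial markers, 19 were above 0, with a higher median of 0.39. The called gene was Egr1, an immediate early transcription factor, at 29.9, 22.7, 21.2 and 21.6 CPM in cKO and at 18.0, 17.1, 15.3 and 13.3 CPM in controls (log2 fold change 0.58, standard error 0.11, adjusted p = 0.0249 by edgeR). Of 25 hypoxia factors and targets, which include regulators of Vegfa, 0 were called (7 higher and 2 lower at an unadjusted p under 0.05) and the median was 0.14. Egln3, an oxygen-sensing prolyl hydroxylase, had the lowest p, at 17.2, 13.9, 11.7 and 30.0 CPM in cKO and at 8.33 to 12.8 CPM in controls (log2 fold change 0.74, adjusted p = 0.130 by edgeR). cKO replicate 4, the library with the highest Vegfa, was the highest of the 8 libraries for 15 of these 25 genes and for 7 of the 9 members. It was also the highest for 12 of the 20 endothelial markers and 11 of the 16 VEGF-responsive genes. For the 40 signalling genes the number was 16, for the 18 partners 8 and for the 20 endothelial transcription factors 10. Among marker lists it was 5 of 6 megakaryocyte and platelet, 5 of 8 erythroid, 3 of 8 mesenchymal and 3 of 7 epicardial genes. It was 2 of 12 cardiomyocyte, 1 of 6 endocardial, 1 of 3 lymphatic, 0 of 10 macrophage, 0 of 6 hepatic and 0 of 4 neural genes. The share over all genes was not computed, so these counts are not read as particular to any list or to the members.

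Of 20 endothelial transcription factors, several of which are known to bind receptor gene enhancers, 4 were called, all higher, and the median was 0.31. These were Lmo2, Sox17, Lyl1 and Sox7, with log2 fold changes of 0.70, 1.22, 0.41 and 0.44 (adjusted p from 0.0131 to 0.0466 by edgeR). The groups of values of these 4 genes did not overlap.

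**Figure D4:**
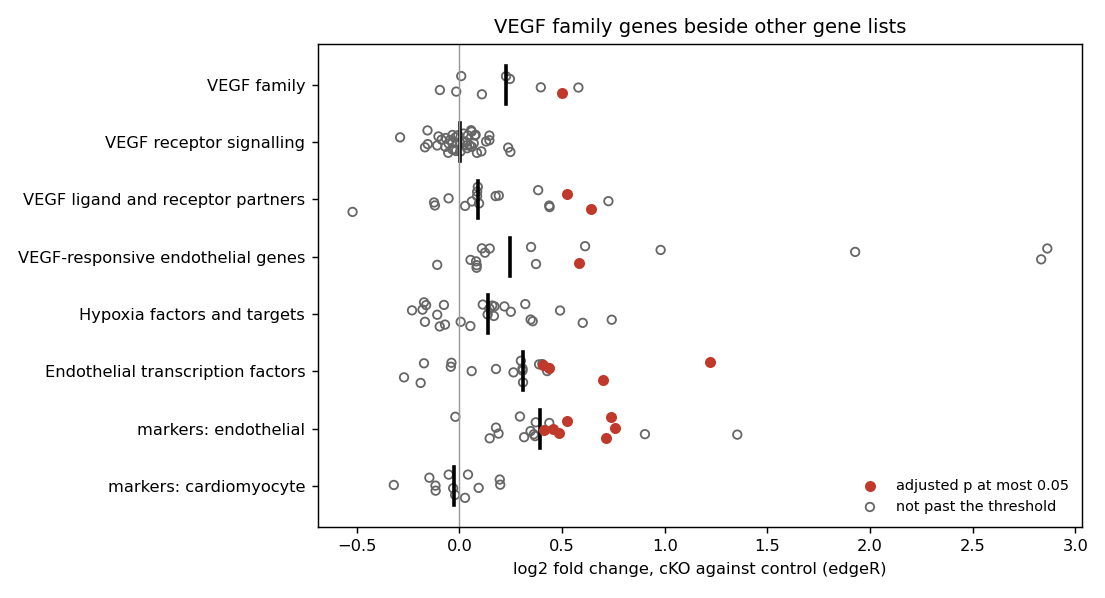
Each point is a gene, with its log2 fold change on the x axis, filled red where the adjusted p was at most 0.05, and a black bar marks the median of each list. The VEGF family (median 0.23) lies between the signalling genes (0.0031) and the endothelial markers (0.39), and the cardiomyocyte markers lie around 0.

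The genes whose profile was nearest to that of Flt1 were sought among 11244 genes with a mean of at least 5 CPM, by the root mean square difference of log2 CPM relative to the control mean over the 8 libraries. The nearest were Adgrf5 (0.049), Dennd3 (0.060) and Fgd5 (0.075). Flt1 itself was at 0.68, 0.37, 0.11 and 0.76 in cKO replicates 1 to 4 on that scale, and Adgrf5, an adhesion receptor, was at 0.67, 0.34, 0.16 and 0.82. Fold changes near that of Flt1 follow from this choice of genes and are not separate evidence. By edgeR, Adgrf5 (log2 fold change 0.52, adjusted p = 0.0327) and Fgd5 (0.42, adjusted p = 0.0453) were called, and Dennd3 was not (0.50, adjusted p = 0.108).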

How the data were processed

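RNA of 8 libraries of E10.5 ventricular tissue (4 Pkn2 cKO, 4 control) was analysed. The raw counts per gene symbol were deposited by the authors without normalization, and a second table deposited by the authors holds TPM. The methods name the nf-core/rnaseq workflow, GRCm39 and DESeq2. The submitters' processing notes list FastQC, Trim Galore 0.6.7, HISAT2 2.2.1, StringTie 2.2.1, featureCounts and DESeq2. The strand setting is not given in the sources used here. Gene positions in the TPM table are those of GRCm38 and are printed as such.

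Genes were kept at 8 or more counts summed over the libraries and tested with edgeR 4.0.16 (TMM, quasi-likelihood F test, design with condition alone) in R 4.3.3, with limma 3.58.1 and DESeq2 1.42.0 as alternatives. Standard errors were the log2 fold change over the root of F. Log2 CPM used a prior count of 2. In simulated data over 25990 genes, the edgeR test found 71% of genes changed 1.5-fold and 91% changed 2-fold. Of its calls, 7.43% were false. The simulated noise was drawn independently for each gene, without differences shared by many genes of a library. These rates therefore need not hold for the real libraries. No 2 libraries of a group were copies (chi-square per degree of freedom over genes far above that of sampling noise in each of 12 pairs). Promoter windows came from the RefSeq table (GRCm38.p6).

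The members and gene lists were chosen with earlier results of these data known. Named were the members, Pkn2, the genes of each pathway list past the threshold (up to 5) or else that with the lowest p, the marker of lowest p in each marker list, markers at 0, and the 3 profiles nearest to a called member. No table column was left out. A marker named by this rule is not reported here. Alternatives were those tools, DESeq2 size factors, filterByExpr, no filter, hemoglobin genes left out, limma on log2 TPM (pseudocounts 1 and 0.1), the replicate number as a block, the median in place of the mean of the endothelial genes, and each library left out.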

Additional observations from a re-analysis of the deposited data

Results flagged for a closer look

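In groups of 4 libraries, a library was singled out where its gap to the nearest other library, divided by the range of the group, exceeded Dixon's 95% critical value. Of 56 groups examined, over the levels, the ratios and the values relative to endothelial genes, 2 did so, and chance alone gives about 5% of groups. The Vegfc level in cKO replicate 4 (16.0 CPM, against 9.95 to 10.6 CPM in the other 3 cKO libraries) had a gap of 0.894 of the range. The Kdr level in control replicate 3 (159 CPM, against 186 to 190.3 CPM in the other 3 controls) had a gap of 0.850 of the range. Without control replicate 3, the Kdr log2 fold change was 0.19 (adjusted p = 0.320 by edgeR).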

How the results depend on the processing

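The count of called members, 1 with edgeR, was 3 with DESeq2 (Flt1, Kdr and Nrp2). DESeq2 with condition alone is the test that the methods name. The methods also require a fold change of 1.5, which these 3 did not reach (DESeq2 log2 fold changes 0.50, 0.25 and 0.23). With no filter on low counts the count was 4 (Flt1, Kdr, Vegfa and Flt4). It was 0 with limma-voom, filterByExpr or limma on log2 TPM with either pseudocount, and 0 with a fold change of 1.5 required in edgeR. It ran from 0 to 4 with single libraries left out. The Flt1 log2 fold change stayed between 0.41 and 0.61 throughout, and its adjusted p between 0.000204 and 0.322. Over all genes, 230 calls became 867 with DESeq2, 878 with no filter, 2 and 5 with limma on log2(TPM + 1) and log2(TPM + 0.1), and 67 (without control replicate 1) to 744 (without cKO replicate 3). Signs near 0 were unstable: Vegfc was −0.010 with limma-voom and between −0.18 and 0.080 with single libraries left out, and Nrp1 was 0.0085 and 0.0086 on log2 TPM and between −0.057 and 0.022. The ratio of Vegfa to Kdr ran from −0.0080 to 0.20, and the number of ratios passing from 0 to 7, with 7 only without cKO replicate 3. Relative to endothelial genes, Vegfa turned to 0.055 with their median, and Flt4 ran from −0.064 to 0.19. The cause was not tested. The replicate block gave 380 calls over all genes and 2 members (Flt1 and Flt4), with Vegfc at −0.020. No pairing by replicate number was seen. Correlations of same-numbered libraries, each relative to its group mean, were −0.25 to 0.06 over 11244 genes, and no cKO library correlated best with its own number. Such correlations over 4 libraries a group cannot exclude that libraries were matched by litter. With 4 libraries a group, the exact tests cannot go below 0.0286.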

Other observations

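A set of 3 low genes of the VEGF-responsive list, picked after their values were seen, were highest in cKO replicate 4. Kcne3, a potassium channel subunit, was at 2.40, 0.582, 0.332 and 7.71 CPM in cKO replicates 1 to 4 and at 0.212 to 0.539 CPM in controls (log2 fold change 2.83, adjusted p = 0.0808 by edgeR). Hlx, a homeobox transcription factor, was at 3.41, 1.31, 1.16 and 6.50 CPM in cKO and at 0.389 to 1.43 CPM in controls (log2 fold change 1.93, adjusted p = 0.0778 by edgeR). Esm1, a secreted proteoglycan of sprouting endothelium, was at 0.476, 0, 0.124 and 3.34 CPM in cKO and at 0.0707 to 0.207 CPM in controls (log2 fold change 2.86, adjusted p = 0.198 by edgeR). For each, cKO replicate 4 was the highest of the 8 libraries, as for Vegfa and Flt4, and none of the 3 passed. Dll4, the Notch ligand of arterial and sprouting endothelium, lay just short of the threshold and was picked in the same way, at 30.9, 22.8, 22.5 and 33.9 CPM in cKO and 13.7 to 20.5 CPM in controls (log2 fold change 0.61, adjusted p = 0.0503 by edgeR, groups without overlap).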
